A study of Mus musculus with 4 samples.

Results

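Macrophage-like cells of day 11 gastruloids were chosen by the UMI counts of 5 genes, and a cell belonged to them when it held at least 1 UMI of 3 or more of *Fcer1g*, *Tyrobp*, *C1qa*, *C1qb* and *C1qc*. Cells first had to hold 2000 UMIs or more (a UMI marks 1 captured RNA molecule) and a share of mitochondrial UMIs under 20%. The rule found 82 of 8730 such cells, or 0.939% (0.748 to 1.16%). The day 11 library held 9584 barcodes and the 4 libraries of the series 31330. Every interval here is at 95%, is exact and covers counting error only, and with 1 library per day no test between cells or days was possible.

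The study grew gastruloids, aggregates of mouse embryonic stem cells that are cultured free of a matrix and form derivatives of the germ layers, to ask whether they specify heart and head muscle. All cells came from the wild-type Zx1 line. The aggregates received a pulse of the Wnt agonist CHIR99021, then bFGF, VEGF and ascorbic acid from day 4, and stood in plain N2B27 medium by day 11. No myeloid growth factor is among these additives. Gastruloids were dissociated with trypsin and their cells captured for 3' counting with 1 Chromium library on each of days 4, 5, 6 and 11.

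Macrophages are phagocytes of the innate immune system. The first of them in the mouse embryo arise from yolk sac progenitors before blood stem cells exist, enter the tissues, the heart among them, and clear dying cells there. Receptors for antibody, lipids and debris in their membrane signal through small adaptors that carry ITAM motifs, and *Tyrobp* and *Fcer1g* encode such adaptors. *C1qa*, *C1qb* and *C1qc* encode the chains of C1q, the complement protein that tags dead cells, which macrophages make themselves.

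The macrophage-like cells were deeper than the rest of the library. They held 3983 to 109400 UMIs with a median of 29940, beside a median of 12020 in the other 8648 cells. They held 4766 genes in the median cell, against 3394. The mitochondrial share was 2.31% in the median macrophage-like cell and 2.38% in the median other cell, and the share of ribosomal protein genes was 22.3% against 24.2%. Between day 11 and each other day, 16 to 23 barcodes coincided, and none of them belonged to a macrophage-like cell. Levels are given below as CPM, which is a gene's UMIs over a set of cells divided by all UMIs of that set and multiplied by 1000000, and are compared between sets of cells and not between genes. As comparison sets, 516 endothelial cells held 4 or more of *Cdh5*, *Pecam1*, *Tek*, *Tie1*, *Emcn* and *Cldn5*, and 1417 cardiomyocytes held 2 or more UMIs of 5 or more of *Tnnt2*, *Tnni3*, *Myh6*, *Ttn*, *Actn2* and *Tnnc1*.

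The 5 genes of the rule chose the cells, so their levels only describe the choice. Of all UMIs of *C1qa* in the 8730 cells, 99.5% lay in the macrophage-like cells, and for *C1qc*, *C1qb*, *Tyrobp* and *Fcer1g* these shares were 99.4, 99.1, 98.4 and 97.7%. *Fcer1g* stood at 2304 CPM (2251 to 2358) against 1.13 CPM in the other cells, and in single macrophage-like cells it ranged from 0 to 6158 CPM around a median of 2339. *C1qb* stood at 2131 CPM against 0.406, with a median cell of 2220 CPM and a highest of 7078. The other cells held these genes at a level near 0 whatever their type. *Fcer1g* UMIs were found in 3.49% of endothelial cells, 1.27% of cardiomyocytes and 0.789% of the remaining cells, and in 0.200, 0.295 and 0.449% of them once each cell had been reduced by random draw to 5000 UMIs, called thinning below. The median depths of these 3 sets were 23250, 20920 and 10840 UMIs. In the macrophage-like cells 96.2% remained positive for *Fcer1g* after thinning.

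The number of rule genes per cell split the library into 2 ends with few cells between them. No rule gene was found in 8438 cells, 1 in 197, 2 in 13, 3 in 6, 4 in 11 and all 5 in 65. Just inside the limit, the 6 cells with 3 rule genes held *Fcer1g* at 885 CPM and *C1qb* at 117 CPM, with 1 UMI of *C1qa* and none of *C1qc*. Just outside it, the 13 cells with 2 held 352 CPM of *Fcer1g* and 43.4 CPM of *C1qb*. Cells with all 5 stood at 2525 and 2453 CPM. All 6 cells just inside held both adaptor genes and 5 of them *C1qb*. Depth moved with the number of rule genes, with a median of 11250 UMIs at 2, 16540 at 3 and 34950 at all 5, and its part in the count was not tested.

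**Figure D1:**
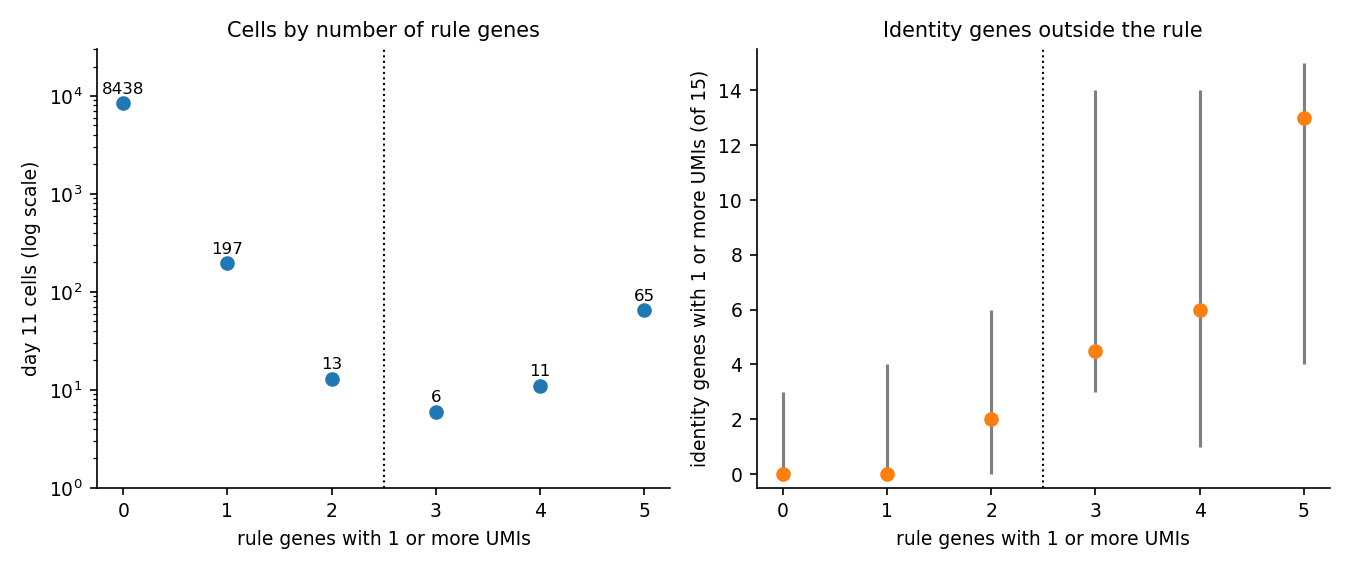
Left, kept day 11 cells (log scale) by the number of the 5 rule genes with 1 or more UMIs, with the limit as a dotted line; 82 cells lie to its right. Right, the number of 15 macrophage identity genes outside the rule with 1 or more UMIs in the same classes (point, median; line, lowest to highest cell). The median is 0 for cells with no or 1 rule gene, 2 with 2 and 13 with all 5.

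The 3 C1q genes lie side by side on the minus strand of mouse chromosome 4 (GRCm38), *C1qa* at chr4:136895917-136898803, *C1qc* at chr4:136889804-136893065 and *C1qb* at chr4:136880129-136886187, with 2851 and 3616 bases between neighbours. UMIs of both *C1qa* and *C1qc* were found in 67 macrophage-like cells, of *C1qa* alone in 1, of *C1qc* alone in 9 and of neither in 5, which the choice of cells by these genes partly sets. Because the rule rests on these neighbouring genes and *Spi1*, the gene of PU.1, was found in most of the same cells (below), the 250 bases before the RefSeq start of *C1qb* and *C1qc* are shown, read on the gene's strand from GRCm38.p6. They lie at chr4:136886201-136886450 and chr4:136892915-136893164, both on the minus strand, and the RefSeq start of *C1qc* lies inside the gene model given above. Capitals mark GAGGAA, the core letters of PU.1 sites, or its reverse complement TTCCTC.
C1qb: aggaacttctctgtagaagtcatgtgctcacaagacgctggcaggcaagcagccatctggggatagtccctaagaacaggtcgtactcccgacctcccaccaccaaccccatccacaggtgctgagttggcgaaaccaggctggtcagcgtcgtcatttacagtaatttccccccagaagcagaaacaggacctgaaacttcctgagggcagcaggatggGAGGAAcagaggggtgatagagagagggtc
C1qc: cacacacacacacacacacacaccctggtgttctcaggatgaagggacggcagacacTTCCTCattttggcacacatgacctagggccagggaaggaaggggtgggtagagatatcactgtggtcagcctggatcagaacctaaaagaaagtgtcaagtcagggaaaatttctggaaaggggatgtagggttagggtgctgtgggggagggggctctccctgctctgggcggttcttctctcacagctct
The match of *C1qb* begins 30 bases before the start and that of *C1qc* 193 bases before it, where it is part of GAGGAAGT on the other strand. Either strand of GAGGAA was found in 7639 of 32851 RefSeq promoter windows of this length, or 23.2%, and GAGGAAGT in 2.44%. Of the other genes looked at, *Marco* and *Trem2* held 1 match each and *Fcer1g* and *Cx3cr1* none. A match describes letters in a window and shows no binding.

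The label was checked on 15 genes that define macrophages and are not in the rule. The macrophage-like cells held a median of 13 of the 15, from 1 to 15, and 74 of 82 held 5 or more. Of the 8648 other cells 2 held 5 or more, and both of these held 2 rule genes. For each gene 10 was added to both CPM values, and a gene counted as higher where the macrophage-like value then exceeded the other 2-fold or more, and as lower in the opposite case. By this rule of size 14 of 15 identity genes were higher, beside 3.22% of all 23105 genes with a UMI (743 genes), and none was lower, beside 4.29% (991 genes). The median identity gene was 24.1-fold higher by that ratio.

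*Csf1r*, the receptor for the growth factor that macrophages need to survive, stood at 204 CPM (188 to 220) against 0.0758. Single cells ranged from 0 to 1062 CPM around 160, with UMIs in 66 of 82. After thinning 56.4% of macrophage-like cells were positive and 0.0241% of the others. *Cx3cr1*, the fractalkine receptor, stood at 354 CPM against 0.124, with a median cell of 302 CPM and UMIs in 68 cells. *Aif1*, a regulator of actin in macrophages, reached 578 CPM against 0.386. *Adgre1*, the F4/80 antigen, stood at 232 CPM against 0.0689, and *Cd68*, a lysosomal glycoprotein, at 438 CPM against 1.81. *Ptprc*, the pan-leukocyte antigen CD45, was found in 62 cells at 107 CPM against 0.0826. For each of these genes some macrophage-like cells held none, so the lowest values of both sets coincide while the medians do not. The exception among the 15 was *Mertk*, a receptor for dying cells, with 12.1 CPM against 3.85, a ratio of 3.14 (2.19 to 4.38) that the added 10 CPM keeps under 2.

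**Figure D2:**
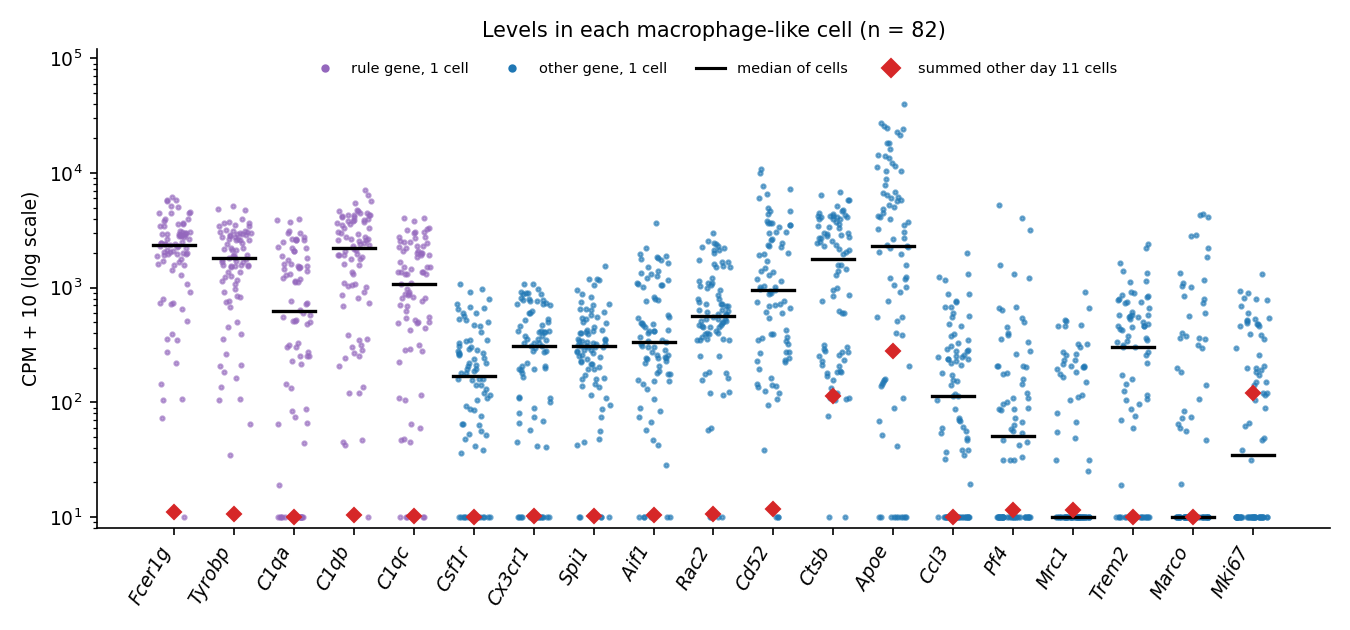
Level of 19 genes in each of the 82 macrophage-like cells as CPM plus 10 on a log scale (purple, rule genes; blue, other genes; points at 10 are cells with no UMI), with the median of cells as a bar and the summed other day 11 cells as a red diamond. *Fcer1g*, *Tyrobp*, *Rac2* and *Cd52* lie above the diamond in nearly every cell. *Mrc1* and *Marco* are at 0 in the median cell.

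Of 16 myeloid transcription factors 11 were higher and none lower. *Spi1* encodes PU.1, the factor that commits progenitors to the myeloid fate, and stood at 397 CPM (375 to 420) against 0.227. It was found in 76 of 82 cells, at 0 to 1533 CPM around a median of 299. *Ikzf1* (40.5 against 0.0758 CPM), *Irf8* (125 against 4.74) and *Cebpa* (16.7 against 1.05), all regulators of myeloid genes, were also higher. *Runx1*, needed for blood to emerge from endothelium, stood at 57.5 CPM against 6.91 and 2.22 in endothelial cells. *Maf* stood at 282 CPM, 6.51-fold (6.06 to 6.99) above the other cells.

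The ligands of *Csf1r* were not a feature of the macrophage-like cells. *Csf1* stood at 10.1 CPM (6.88 to 14.4) in them and at 9.96 in the other cells, with 13.6 in endothelial cells, 4.69 in cardiomyocytes and 11.5 in the rest. *Il34*, the second ligand, gave 3 UMIs in the whole library, none of them in macrophage-like cells. Of the receptors for other myeloid growth factors, *Csf3r* stood at 38.5 CPM in 40 cells, against 2 UMIs elsewhere, and *Csf2rb* at 21.9 against 0.427 CPM. *Csf2ra*, at 22.5 against 6.89 CPM, did not reach 2-fold on CPM + 10. *Flt3* gave no UMI and *Kit* 3.27 CPM, against 69.2 CPM in endothelial cells.

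The receptors that signal through the ITAM adaptors, and their kinases and inhibitory partners, were present nearly as a set, with 18 of 22 higher and none lower. Among the Fc receptors, which bind antibody, *Fcgr3* stood at 253 CPM, *Fcgr1* at 141, *Fcgr4* at 56.5 and *Fcgr2b* at 27.8, against 0.0138 to 0.124 CPM in the other cells. *Trem2*, a receptor for lipids and apoptotic debris that pairs with *Tyrobp*, stood at 349 CPM (328 to 370) and was found in 58 cells. The lectin receptor *Clec4a2* stood at 142 CPM in 50 cells. The kinases *Lyn* (184 CPM) and *Syk* (67.6 CPM), which act next in the pathway, were 24.5-fold and 19.2-fold above the other cells. Of the brakes on it, the phosphatase *Ptpn6* stood at 209 CPM, *Sirpa*, which reads the "don't eat me" signal, at 129 CPM and *Lilrb4a* at 97.0 CPM. *Trem1* and *Pilrb1* gave no UMI in these cells.

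Outside C1q, 5 of 19 genes of the complement system were higher. Among them were the receptors *C3ar1* (333 CPM in 72 cells, against 0.103) and *C5ar1* (28.7 CPM in 30 cells, with no UMI in the other cells) and the alternative pathway genes *Cfp* (70.9 against 1.71 CPM) and *Cfb* (10.5-fold, 7.48 to 14.6, above the other cells). The partner proteases of C1q, *C1ra* and *C1s1*, gave no UMI in the macrophage-like cells, with an exact interval of 0 to 1.21 CPM, and stood at 0.468 and 0.916 CPM in the others. *C3* was at 3.59 against 3.25 CPM, and *Vsig4* gave no UMI.

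Genes of leukocyte adhesion and motility followed, with 22 of 26 higher and none lower. *Rac2*, the Rac GTPase of blood cells, stood at 870 CPM against 0.627 and was found in 78 of 82 cells, with a median cell of 555 CPM. *Coro1a* (434 CPM), *Lcp1* (361), *Fermt3* (181) and *Hcls1* (153), which shape the actin cortex or switch on integrins, were 43.2-fold to 164-fold above the other cells. Subunits of the phagocyte NADPH oxidase, the enzyme that makes the oxidative burst, were among the higher genes, such as *Cyba* (1169 against 116 CPM), *Ncf4* (230 against 0.523), *Cybb* (126 CPM, against 3 UMIs elsewhere) and *Ncf1* (109 against 0.303). The actin-binding peptide gene *Tmsb4x* stood at 26390 CPM, from 1913 in the lowest to 60830 in the highest cell, beside 2860 CPM in the other cells. The integrin gene *Itgam* was found in 44 cells (87.2 CPM) and *Itgax* in 3.

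Lysosomal genes were higher in 23 of 32 cases and lower in none. The cathepsins *Ctsb* (1926 against 104 CPM), *Ctsd* (1507 against 100.5), *Ctsz* (862 against 67.1), *Ctss* (361 against 0.241) and *Ctsc* (333 against 5.25), proteases that digest engulfed material, were among them. *Ctsl* stood at 803 CPM against 378 in the other cells but was no higher than in endothelial cells (818 CPM, ratio 0.981, 0.940 to 1.02). *Lgmn* (411 CPM), *Hexa* (400), *Psap* (367) and *Grn* (487) were 4.52-fold to 15.2-fold above the other cells. Members of the list such as *Npc2* (1.27-fold), *Cd63* (1.28-fold) and *Lamp2* (1.20-fold) lay close to the other cells.

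Lipid genes were higher in 16 of 23 cases. *Apoe*, which carries lipids out of macrophages, stood at 4777 CPM (4700 to 4855), 17.6-fold above the other cells and 8.41-fold above endothelium, and ranged from 0 to 40130 CPM with a median of 2305. Its neighbour *Apoc1* (454 against 6.42 CPM), the lipid droplet gene *Plin2* (1005 against 66.9), the cholesterol exporter *Abca1* (204 against 19.9) and lipoprotein lipase, *Lpl* (366 against 61.4), were also higher. *Fabp4* (31.7 CPM) and *Fabp5* (2534 CPM) stood below endothelium, at 557 and 4459 CPM. Of the genes of iron and haem 11 of 18 were higher and 1, the transferrin receptor *Tfrc*, was lower. The ferritin gene *Fth1* stood at 21680 against 2186 CPM and *Ftl1*, the other ferritin chain, at 124 against 25.8. *Slc11a1*, the iron pump of the phagosome, was at 61.4 against 0.0964 CPM and the exporter *Slc40a1* at 54.9 against 13.1. *Hmox1*, which breaks down haem, stood at 95.7 against 28.4 CPM, while the haemoglobin receptor *Cd163* gave 0.327 CPM.

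Of receptors, bridging molecules and engulfment genes for dying cells 9 of 24 were higher. *Marco*, a scavenger receptor, stood at 464 CPM against 0.0826 and *Stab1*, another, at 217 against 10.1 and 78.8 in endothelium. *Gas6*, the bridge between dying cells and the TAM receptors, was at 63.4 against 12.7 CPM. The TAM receptors themselves did not reach 2-fold on CPM + 10. *Mertk* stood at 12.1 against 3.85 CPM, as given above, *Axl* at 9.80 against 14.7 and *Tyro3* at 1.31 against 4.64. *Mfge8*, a second bridge, was lower (14.4 against 42.6 CPM).

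Of 25 chemokines and cytokines 11 were higher and 1, *Cxcl1*, was lower. *Ccl3* stood at 279 CPM against 0.0826 and was found in 59 cells, *Ccl4* at 229 CPM in 42 cells and *Ccl9* at 182 CPM in 66 cells. *Ccl3*, *Ccl4*, *Ccl6* and *Ccl9* lie on 1 stretch of chromosome 11, chr11:83572919-83664683 (GRCm38), and recruit myeloid cells and lymphocytes. *Pf4*, a chemokine of embryonic macrophages and platelets, stood at 253 CPM in 48 cells. *Tgfb1* was at 137 CPM, below endothelium (218) and above cardiomyocytes (7.30). *Tnf* (41.5 CPM in 27 cells) and *Il1b* (63.0 CPM in 14 cells) came from a minority, *Il10* from 6 cells, and *Il6* from 2. Of 20 growth and vessel factors 4 were higher, among them *Grn*, and 3, *Vegfa*, *Mmp14* and *Wnt5a*, were lower, with *Vegfa* at 31.0 against 102 CPM. *Igf1*, a growth factor of tissue macrophages, stood at 183 CPM, 1.74-fold (1.59 to 1.89) above the other cells, and at 167 CPM in endothelium.

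Pathogen sensors were higher in 10 of 21 cases. *Tlr2* (21.5 CPM), *Tlr7* (16.7), *Tlr1* (12.4) and *Tlr13* (12.4) were among them, while *Tlr3*, *Tlr4*, *Tlr8* and *Tlr9* stood at 0.653 to 5.55 CPM. *Unc93b1*, which brings endosomal receptors to their place, stood at 194 against 2.99 CPM and *Pycard*, the inflammasome adaptor, at 286 against 7.75. Interferon response genes were higher in 9 of 18 cases, among them *Ifit1*, *Isg15* and *Rsad2*. These were found in 15, 37 and 11 cells, so the median cell held none, and the highest held 2156, 1589 and 1527 CPM. Class I antigen presentation was higher in 7 of 10 genes, with *B2m* at 556 against 95.7 CPM. Of 11 class II genes 2 were higher, beside 3.22% of all genes. *H2-Aa*, *H2-Eb1* and their activator *Ciita* gave no UMI in the macrophage-like cells, *H2-Ab1* stood at 22.2 CPM, against 50.5 in the other cells, and the higher genes were *Cd74* (85.9 CPM in 26 cells) and the costimulator *Cd86* (15.4 CPM in 27).

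**Figure D3:**
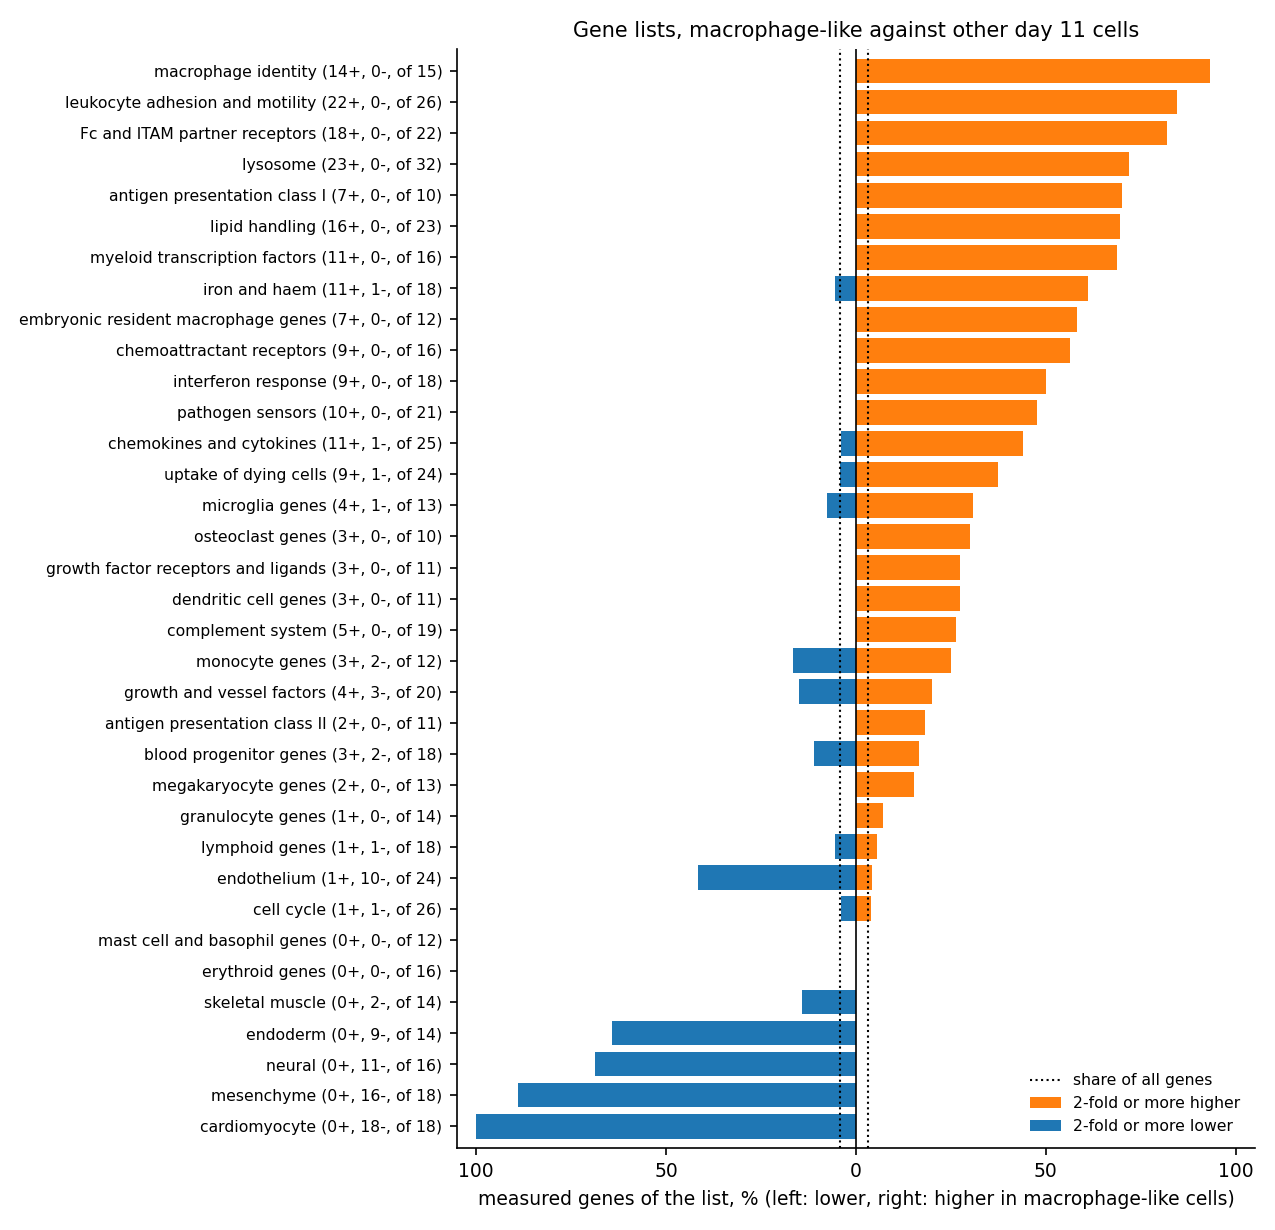
Share of the measured genes of 35 lists that were 2-fold or more higher (right, orange) or lower (left, blue) in macrophage-like than in other day 11 cells, on CPM plus 10, with the shares over all genes (3.22% and 4.29%) as dotted lines. Numbers beside each name count higher (+) and lower (-) genes. Macrophage identity, adhesion and ITAM lists top the plot and cardiomyocyte and mesenchyme genes close it.

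Markers of particular macrophages and monocytes were mixed. Of 12 genes of embryo-derived tissue macrophages 7 were higher. *Mrc1*, the mannose receptor, was found in 35 cells at 99.6 CPM, *F13a1* in 11 cells and *Folr2* in 18 at 18.3 CPM, whereas *Timd4*, *Cd163*, *Cbr2* and *Lyve1* stood at 0.327 to 6.86 CPM. Of 13 microglia genes 4 were higher and 1 was lower. *Fcrls* reached 266 CPM (248 to 285) in 67 cells, *Gpr34* was found in 38 cells and *P2ry12* in 26. *Sall1*, the factor of mature microglia, and *Tmem119* stood at 2.94 and 6.53 CPM, below the other cells (7.49 and 19.1 CPM). Of 12 genes of blood monocytes 3 were higher, 2 were lower and 4 gave no UMI, beside 3.22% of all genes higher and 4.29% lower. *Ly6c2* gave no UMI and *Ccr2* 7 UMIs in 4 cells, while *Ms4a6c*, on the same list, stood at 317 CPM in 69 cells.

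Among other blood lineages, erythroid, mast cell and, apart from *Csf3r*, granulocyte genes were close to 0. Counts of higher and lower genes stand beside 3.22 and 4.29% of all genes. None of 16 erythroid and none of 12 mast cell and basophil genes was higher, and 12 and 10 of them gave no UMI. Of 14 granulocyte genes 11 gave no UMI and only *Csf3r* was higher. Of 18 lymphoid genes 12 gave no UMI and 1 was lower. The single higher one was *Cd79b* (91.8 CPM in 57 cells), which encodes an ITAM chain of the B cell receptor. Its partner *Cd79a* gave 1 UMI. In megakaryocyte genes *Pf4* and *Plek* were higher, with *Gp9* and *Ppbp* at 1 UMI each. The megakaryocyte list summed to 416 CPM, against 13.6 in the other cells. Of 11 dendritic cell genes 3 were higher, and the list summed to 331.5 against 87.0 CPM. Of 18 blood progenitor genes *Runx1*, *Lmo2* and *Ly6a* were higher and 2 were lower, and *Myb*, the factor of definitive blood progenitors, gave 6 UMIs. The progenitor list summed to 248 CPM, against 246 in the other cells. Of the *Ly6a* UMIs 96.3% came from 1 cell.

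Of 26 cell cycle genes 1 was higher, *Mki67*, at 240 CPM (223 to 258) against 111, and 1 was lower, *Stmn1*. These counts are near the shares over all genes, 3.22% higher and 4.29% lower. The median cell cycle gene was 1.39-fold higher. *Mki67* and *Top2a*, genes of dividing cells, were found together in 38 cells, *Mki67* alone in 4, *Top2a* alone in 9 and neither in 31. After thinning, 41.0% (30.01 to 52.8%) of macrophage-like cells held 3 or more of 6 mitotic genes, beside 20.5% (19.6 to 21.4%) of the other cells and 25.9% of endothelial cells. Unthinned shares were 57.3, 25.6 and 38.0%. Without the 23 members at 1000 CPM or more of another type (below) the thinned share was 32.7% (20.7 to 46.7%) of 55 cells. That interval overlaps that of the other cells. Without the cells of highest doublet score it was 33.3% (17.3 to 52.8%) of 30 macrophage-like cells and 18.3% (17.4 to 19.1%) of the others, and these intervals overlap too. *Mki67* was under 2-fold without the cells of highest doublet score (log2 ratio 0.34, against 1.05) and without those 23 members (0.93).

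The macrophage-like cells were not uniform, and levels of *Marco* and *Trem2* ran in opposite directions, with overlap. *Marco* was found in 36 cells, at a median of 381 CPM among them and at most 4380. UMIs of both genes were found in 15 cells, of *Marco* alone in 21, of *Trem2* alone in 43 and of neither in 3. In the 59 members without RNA of other cell types (below) these counts were 14, 12, 31 and 2. There, more cells with *Marco* held *Trem2* than lacked it. After thinning of 78 cells, 7 held both, 17 *Marco* alone, 41 *Trem2* alone and 13 neither. Across the 82 cells the correlation on log2(CPM + 10) was -0.52, given as a description, since the cells share 1 library and differ in depth. All 35 cells with *Mrc1* also held *Trem2*, which was found alone in 23, and after thinning *Mrc1* was found with *Trem2* in 16 cells and without it in 1. *Marco* and *Mrc1* met in 4 cells, and after thinning of 78 cells in none, with *Marco* in 24 and *Mrc1* in 17. Median depth was 38820 UMIs in the cells with *Marco* and 26530 in the 46 without it. The part of depth in the zeros for *Trem2* and *Mrc1* was not tested.

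Cells with *Marco* held more *Ltb* (lymphotoxin beta, 272 against 10.4 CPM), *Ighm* (304 against 73.0), *Clec4a1* (258 against 36.5), *Clec4a3* (143 against 7.82), *Cd72* (184 against 13.7), and *Itgam* (150 against 24.1). All 159 UMIs of *Fpr1*, the receptor for bacterial formyl peptides, lay in 24 of these cells. Inflammatory cytokines were on the same side, *Il1b* with 185 of 193 UMIs and *Tnf* with 66.1 against 16.9 CPM. They came from few cells, *Il1b* from 12 with *Marco* and 2 without, and *Tnf* from 17 and 10. The median cell held neither gene on either side. *Cd74* was also higher with *Marco* (163 against 9.13 CPM). Of its UMIs 60.1% lay in 3 cells, and the median cell held 12.7 CPM with *Marco* and none without. Cells without *Marco* held more *Trem2* (512 against 185 CPM), *Mrc1* (179 against 20.3), *Pf4* (463 against 41.9), *Folr2* (35.2 against 1.31), *Gas6* (111 against 15.7), *Igf1* (266 against 99.4), *Abca1* (318 against 89.0), *Ctsb* (2688 against 1161), *Ctsd* (2268 against 743), *Lgals3* (780 against 120) and *Fcgr3* (347 against 160). *Apoc1*, a lipid carrier, lay on the other side, with 708 CPM in cells with *Marco* and 199 in those without. Identity genes also differed, with *Adgre1* at 346 against 119 CPM and *Spi1* at 569 against 226 where *Marco* was found, and *Csf1r* at 156 against 251. Of the rule genes, *C1qb* stood at 2074 and 2187 CPM, *Tyrobp* at 1626 and 1771 and *Fcer1g* at 2694 and 1915, and *Cx3cr1* at 370 and 337. The genes were compared after this division had been seen, so the values describe it and test nothing. In the 59 members without RNA of other cell types (below), the cells with *Marco* held 259 CPM of *Trem2* against 730 in those without, and 302 CPM of *Ltb* against 3.57. In these 59 cells *Cx3cr1* turned its order, at 425 against 467 CPM.

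**Figure D4:**
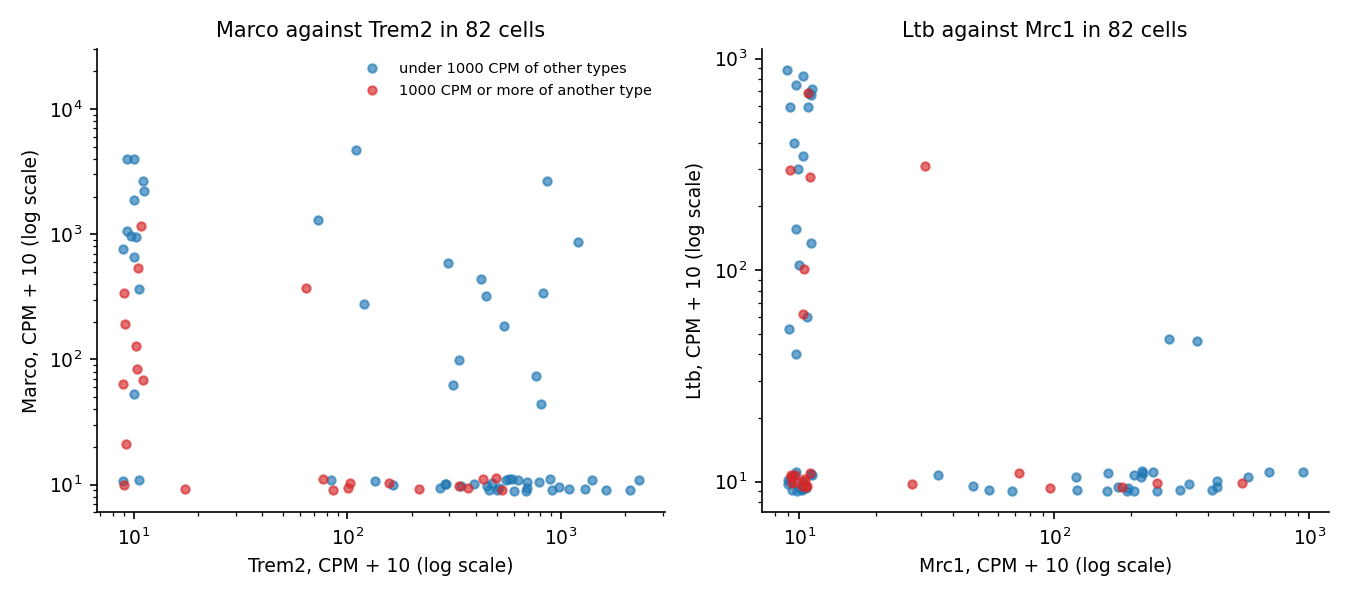
*Marco* against *Trem2* (left) and *Ltb* against *Mrc1* (right) in the 82 macrophage-like cells, each axis as CPM plus 10 on a log scale, with small random shifts so that points do not cover each other. Red points are the 23 cells with 1000 CPM or more of another cell type's genes. Most points lie along an axis, and 15 cells hold both *Marco* and *Trem2*.

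A few cells made up most of some genes. Of 221 UMIs of *Gpnmb*, a gene of lipid-laden macrophages, 178 lay in 1 cell, which also set its highest level of 6596 CPM, and the gene was found in 3 cells. *Spp1* (osteopontin) was found in 22 cells, with 59.3% of its 835 UMIs in 1. For *Ccl5* 89.8% and for *Il1b* 81.9% of UMIs lay in 3 cells, and *Saa3*, an acute phase gene, gave 493 UMIs in 22 cells with 66.7% in 3. Group levels of these genes are therefore set largely by a few cells. By contrast 3 cells held 31.9% of *Marco* and 29.1% of *Ccl3* UMIs.

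RNA of other cell types was low in most macrophage-like cells and high in some. All 18 cardiomyocyte genes and 16 of 18 mesenchyme genes were lower than in the other cells, and so were 11 of 16 neural and 9 of 14 endoderm genes. Yet summed cardiomyocyte genes ran from 0 to 41530 CPM around a median of 157, and 11 cells reached 1000 CPM. For mesenchyme genes 12 cells reached that level, with 42 at 0, for endothelial genes 4 and for neural and skeletal muscle genes 1 each. Summed over 22 endothelial genes, the median macrophage-like cell held 136 CPM and the median other cell 83.8. In all 23 of 82 cells held 1000 CPM or more of at least 1 of these lists. Their median depth was 40250 UMIs, against 28500 in the other 59, and they held 11 identity genes in the median, against 13. The other 59 were not free of such RNA, and 1 of them held 912 CPM of cardiomyocyte genes. By the marker rules 4 macrophage-like cells also met that for endothelium and 5 that for cardiomyocytes. A simulated doublet score put 50 of 82, or 61.0%, among the 8% of day 11 cells with the highest scores, 13 of the 23 included. The part of doublets, engulfed cells or free RNA in these values was not tested. Leaving out the 23 cells was an alternative added with the data in view. It gave as higher 14 of 15 identity genes, 18 of 22 ITAM genes, 22 of 32 lysosomal, 22 of 26 adhesion and 12 of 16 transcription factor genes.

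**Figure D5:**
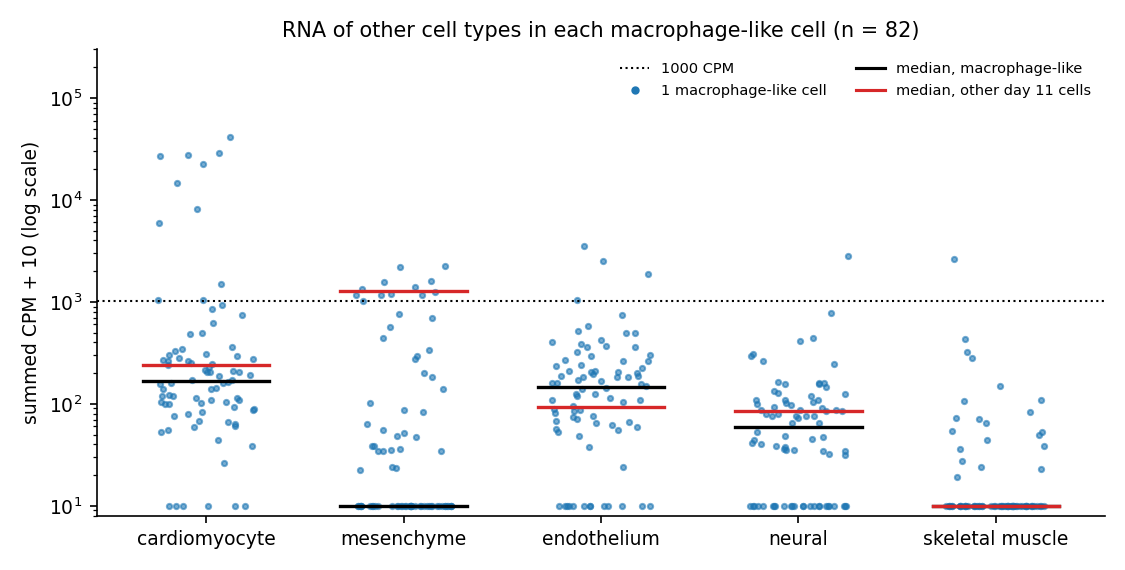
Summed level of genes of 5 other cell types in each of the 82 macrophage-like cells (points, CPM plus 10 on a log scale; points at 10 are cells at 0), with the medians of macrophage-like (black) and other day 11 cells (red) and a dotted line at 1000 CPM. Cardiomyocyte genes reach 41530 CPM in the highest cell, and mesenchyme genes are at 0 in 42 cells.

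Outside all lists, 20 genes were named by their ratio to the other cells. *Cd52*, a surface glycopeptide of leukocytes, stood at 1880 CPM (1832 to 1930) against 1.65 and was found in 79 cells. *Lst1* (905 against 1.20 CPM), *Fyb* (688 against 0.937), *Selenop* (750.5 against 43.2), *Ptpn18* (411 against 12.6), *Bcl2a1b* (220 against 0.303), *Slfn2* (209 against 0.413), *Apbb1ip* (189 against 0.978), *Ighm* (188 against 0.158) and *Gatm* (254 against 9.26), an enzyme of creatine synthesis, were also among the 20. *Mpeg1*, the macrophage pore protein perforin-2, gave 452 UMIs here and 4 in all other cells, and *Ms4a6b* 433 and 3. *Ighm*, *Cd79b* and *Ltb* are better known from B cells, whose other genes were near 0 as given above. At the low end, *Crabp1* (14.4 against 320 CPM), *Igfbpl1* (4.57 against 112), *Igfbp2* (10.4 against 160), *Sparcl1* (18.0 against 199) and *Meg3* (119 against 895) were found in 19.7 to 79.3% of the other cells. *Bcl2a1b*, *Ms4a6b*, *Ms4a6c*, *Clec4a1* to *Clec4a3* and the Ccl genes belong to families of close copies, and how the counting split reads between copies is not known here.

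Endothelium, from which blood cells emerge in the embryo and which carries scavenger receptors of its own, was the second set compared. Against it 716 of 23105 genes were higher (3.1%) and 763 lower (3.3%), and 15 of 15 identity genes were higher, *Mertk* included (12.1 against 0.854 CPM). Of 24 endothelial genes, 6 of which chose the endothelial cells, 22 were lower, with *Cdh5* at 6.53 against 251 CPM and *Cldn5* at 0.653 against 250. *Pecam1* was at 39.2 against 273 CPM and was found in 37 macrophage-like cells, and *Stab1* was the only listed endothelial gene higher in the macrophage-like cells (2.76-fold, 2.51 to 3.03).

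The same rule was applied to the earlier days. It found 0 of 7202 kept cells at day 4 and 0 of 7408 at day 5, which allows shares of up to 0.0417 and 0.0405% when a count of 0 is taken to allow 3 cells, and 4 of 5850 at day 6, or 0.0684% (0.0186 to 0.175%). No *C1qa* UMI was found before day 11. The 4 cells of day 6 held 3 to 44 UMIs of *Fcer1g*, 2 to 19 of *Tyrobp* and 5 to 21 of *Spi1*, but 2 to 4 of the 15 identity genes each. Of the 4 cells 3 held *Runx1*, *Itga2b* and *Kit*, genes of early blood progenitors, and none held *Adgre1*, *Ptprc*, *Aif1* or *Cx3cr1*, so the day 6 cells met the rule but held few genes of the label. In all kept cells, *Spi1* stood at 0.0572, 0.203, 0.729 and 8.42 CPM over the 4 days, and *Csf1r* at 0.0308, 0.373, 0.138 and 4.28. *Cx3cr1*, *Ctss* and *Aif1* did not exceed 0.0381 CPM before day 11 and reached 7.43, 7.70 and 12.3 CPM then. *Csf1* stood at 1.01, 2.44, 3.26 and 9.96 CPM. Median depth was 25340, 28400 and 25580 UMIs on days 4 to 6 and 12080 at day 11. Within day 11 it was 29940 in the macrophage-like cells. The part of depth in these values was not tested, and time and library cannot be told apart.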

How the data were processed

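Single-cell RNA was measured in 1 library of Zx1 gastruloids on each of days 4, 5, 6 and 11. The authors deposited raw UMI counts per gene and barcode, with cells already called and no normalization. The labels name Cell Ranger 3.1.0 and mm10 (GRCm38), whereas the header of the day 11 matrix names version 6.0.1, and the annotation is not given in the sources used here. The 4 libraries held 227398362, 236714826, 182150138 and 149169498 UMIs in 7324, 7794, 6628 and 9584 barcodes.

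From the counts, CPM, percent, ratio and log2 values were computed here (Python 3.11.15, NumPy 2.4.6, SciPy 1.17.1, pandas 2.3.3). Cells needed 2000 UMIs and a mitochondrial share under 20%, which left 8730 at day 11. Genes were counted as higher or lower on CPM + 10 at 2-fold. Intervals are exact Poisson (CPM), Clopper-Pearson (shares) and conditional binomial (ratios) at 95%, and UMIs from 3' libraries carry molecular identifiers. For a share of 0, the upper limit was set at 3 counts. Cells were thinned once to 5000 UMIs, which left out 4 macrophage-like cells and kept 78 of them and 8312 others. Doublets were left in. They were scored with 2 simulated doublets per cell on 2000 genes and 30 components, and leaving out the top 8% was an alternative. The calls of higher and lower genes and the intervals were tested on simulated counts with known changes and no spread between cells. Thinning and doublet scores were not tested.

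The members, the 36 gene lists and the comparison sets were chosen with earlier results of these data known. Named genes are those of the lists that show a role at 100 CPM or 2-fold and, outside the lists, the 20 with the highest ratio among genes found in 25% of the macrophage-like cells and the 5 with the lowest ratio, mitochondrial and unnamed genes excepted. *Saa3*, *Fpr1* and the genes compared by *Marco* were added after their values had been seen. Positions are from GENCODE vM21 and promoters from RefSeq. The alternatives were 13 settings of the filters, the rule, doublets, the added CPM, the filter on genes and the scaling.

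Some genes are not reported here.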

Additional observations from a re-analysis of the deposited data

Results flagged for a closer look

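Outside the filters on cells, 17 day 11 barcodes held 3 or more of the 5 rule genes, a signal in data that the comparisons do not use. All 17 of the 854 removed barcodes failed on UMIs, with 629 to 1754 each and a median of 1039, and none on the mitochondrial share, which was at most 2.62%. They held 0 to 4 of the 15 identity genes, with a median of 2. A limit of 1000 UMIs in place of 2000 gave 92 macrophage-like cells.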

How the results depend on the processing

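No paired analysis was possible because each day is 1 library, and no replicate could be left out. The number of macrophage-like cells was 76 with 4 rule genes, 95 with 2 and 78 at 5000 UMIs. It was 59 without the cells at 1000 CPM or more of another type's genes, and it dropped to 32 without the 8% highest doublet scores. There were 743 genes higher in macrophage-like cells, 991 genes lower in macrophage-like cells and 716 genes higher than in endothelium. With 1 CPM added these counts were 1492, 3723 and 1631, with 50 CPM added 283, 198 and 258. Among genes of 5 CPM or more in the library, 429 were higher than in the other cells and 425 than in endothelium, since fewer genes (10454) were compared. Without the cells at 1000 CPM or more of another type's genes 1791 genes were lower. The other settings kept the counts within 1.5 times. No count or gene ratio against the other cells turned its direction under these settings, while the order of *Cx3cr1* between cells with and without *Marco* did. Of 83 genes followed through all settings, 78 were past 2-fold, and those that lost this under 1 or more settings were *Stmn1*, *Mki67*, *Cdh5*, *Runx1*, *Hmox1* and *Vegfa*. The share of macrophage-like cells positive for *Csf1r* was 29.3% when thinned to 2000 UMIs and 80.5% unthinned, beside 56.4%, so depth sets such shares. With 82 cells of 1 library, the spread between cultures is unknown.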
